A study of Rattus norvegicus with 27 samples.

Results

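The genes that encode the proteins of the cytosolic ribosome were followed in cultured rat oligodendrocyte precursor cells (OPCs) as they differentiated, with and without interferon gamma (IFNγ). A gene was taken as a member when its array annotation gave a single symbol of the form Rpl or Rps with a number, or was Rplp0, Rplp1, Rplp2 or Rpsa, and when it was neither an S6 kinase nor a pseudogene. This gave 44 of 14217 genes, 30 of the large subunit and 14 of the small subunit, each read from its brightest probe set. A further 33 probe sets of the family carry several symbols at once, often with names of copies or pseudogenes, and were kept apart, so Rplp1, Rps27 and many other ribosomal proteins had no value of their own.

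The OPCs came from the cortices of early postnatal rat pups, were selected with A2B5 magnetic beads and were expanded with PDGF and Noggin. PDGF is a growth factor that keeps them proliferating. RNA from 3 donors was measured on 27 arrays, 3 for each of 9 groups. In the first group the cells were taken at 0 h in PDGF. In the others the expanded cells were given the thyroid hormone T3, which starts differentiation, or T3 with IFNγ, for 8, 24, 48 or 96 h. As PDGF arrays exist for 0 h only, the addition of T3, any change in PDGF and the time in culture cannot be told apart in the comparisons of T3 with PDGF. Those 4 comparisons share the PDGF arrays, and the T3 arrays also serve as the controls of the T3+IFNγ comparisons.

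A ribosome is built from ribosomal RNA and a protein set in nearly equal amounts, and its assembly in the nucleolus needs RNA polymerase I and a large group of biogenesis factors. Growing and dividing cells spend much of their transcription and translation on it. Most ribosomal protein messages start with a C followed by a run of pyrimidines, the terminal oligopyrimidine (TOP) motif, through which their translation follows mTOR signalling. In the oligodendrocyte lineage, proliferating precursors leave the cell cycle before they make myelin proteins.

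The deposited values are log2 signals, and a difference of 1 between them is a doubling. The members were among the brightest genes on the arrays. Their median signal over all arrays was 12.94, against 7.21 for all genes, and 32 of them ranked among the top 100 genes. The brightest were Rpl7a, Rps29, Rpl19, Rps6 and Rps23. Rps6, the small subunit protein that S6 kinases phosphorylate, had a mean of 13.46 over the 27 arrays. There were 5 members with means under 10. Rpl3l, a paralog of Rpl3 that is used in striated muscle, had a mean of 4.15 and a range of 3.96 to 4.41. Rpl30, Rps13, Rpl28 and Rpl39 had means of 5.12, 5.36, 5.70 and 7.60 in their single-symbol probe sets. Brighter probe sets that list Rpl30, Rps13 or Rpl28 among other symbols were not used for them.

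The markers of the lineage moved with the labels. Of the oligodendrocyte markers measured, 5 of 5 rose from PDGF to 96 h of T3, with a median change of 6.93, and 3 of 4 OPC markers fell (limma adjusted p under 0.05). Microglia markers were present too. Their mean signal over 8 genes was 6.03 to 7.17 on the PDGF arrays, 5.02 to 5.22 with T3 at 96 h and 6.22 to 7.66 with T3+IFNγ at 96 h. Of these 8 genes, 7 fell with T3 at 96 h, and with IFNγ 1, 2, 3 and 4 rose at 8, 24, 48 and 96 h. Astrocyte markers, 6 genes, had mean signals of 8.39 to 9.25 on the PDGF arrays and 9.33 to 9.96 with T3 at 96 h. Of these 6, 2 rose and 1 fell with T3 at 96 h, and 1 rose with IFNγ at 96 h. Of 6 neuron markers 3 fell with T3 at 96 h and 2 rose with IFNγ at 96 h. The part of such other cells in the values below was not tested. The difference between the 3' and 5' Gapdh control probe sets, a measure of RNA quality, was -0.26 to -0.06 on 24 arrays. It was 0.37 and 0.11 on the T3+IFNγ arrays of donor 2 at 8 and 24 h and 0.07 on the PDGF array of donor 2. The same difference for actin was 0.76 to 1.10 on the PDGF arrays, 0.80 to 0.94 with T3 at 48 h and 1.10 to 1.15 with T3 at 96 h, where the members were lowest, and its part in their fall was not tested. In such bulk RNA, fewer cells of a type and less RNA per cell cannot be told apart.

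Ribosomal protein genes fell as the cells differentiated with T3, with the first calls at 24 h. At 8 h none of the 44 was called in either direction, and none reached an unadjusted p under 0.05 in the limma fit. At 24 h 10 fell, at 48 h 36 fell and at 96 h 42 fell, and none rose at any time. Leaving out any 1 donor left 3 or 4 calls at 24 h, and leaving out donor 2 left 22 at 48 h. Such fits have fewer arrays per group, and the median change at 24 h was -0.16 to -0.12 in them. Without the PDGF array of donor 2, an alternative chosen after seeing the data, 34 and 42 members fell at 48 and 96 h. The median change of the members was -0.02, -0.15, -0.29 and -0.61 at 8, 24, 48 and 96 h, while the median over all genes lay between -0.004 and 0.01. The median member thus had 65.6% of its PDGF signal left at 96 h. A call means an adjusted p under 0.05 in limma with Benjamini-Hochberg adjustment over all 14217 genes. By that rule 5.37%, 17.8%, 25.7% and 29.5% of all genes were lower at the 4 times and 7.31%, 17.1%, 17.5% and 23.4% were higher. In this fit the members' share called lower was thus close to the background at 24 h (22.7%) and well above it at 96 h (95.5%). Called or not, 43 of the 44 members had a change below 0 at 24 h, against 7178 of all 14217 genes.

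**Figure D1:**
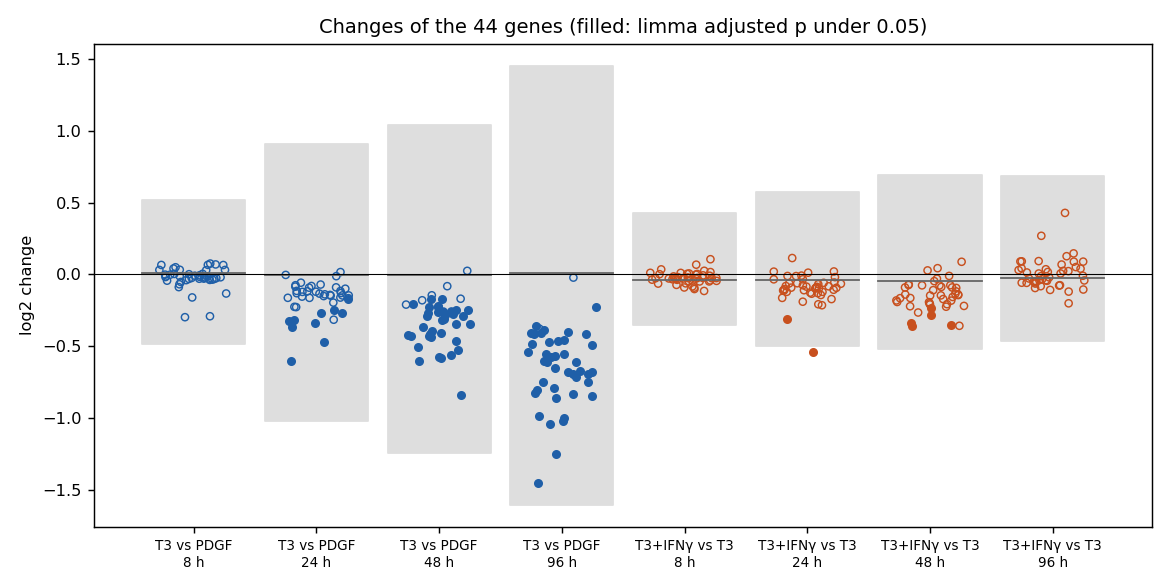
Log2 change of each of the 44 ribosomal protein genes (points) in the 4 comparisons of T3 with PDGF (blue) and the 4 of T3+IFNγ with T3 (orange), filled where limma's adjusted p was under 0.05, with the 5th to 95th percentile of all 14217 genes as a grey band and their median as a grey line. The blue points slide below 0 from 24 h and all 44 lie below it at 96 h, while the orange points stay close to 0 with filled points at 24 and 48 h only.

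The fall was seen in every donor. The median change over the members at 96 h was -0.72 in donor 1, -0.58 in donor 2 and -0.55 in donor 3, where at 48 h the same donors had -0.36, -0.29 and -0.22. At 24 h they had -0.17, -0.12 and -0.13. Donor 1 was the lowest at all 3 of these times. The T3 and PDGF arrays did not overlap, with all T3 arrays lower, for 35, 40 and 43 members at 24, 48 and 96 h, against 22.5%, 30.0% and 32.7% of all genes. At 8 h 3 members lay wholly below their PDGF arrays and 6 wholly above, against 12.7% and 17.2% of all genes.

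To set arrays side by side, each member's value was taken as its deviation from its own mean over the 27 arrays, and the median over the 44 members was read on each array. On the PDGF arrays of donors 1, 2 and 3 this median was 0.26, 0.27 and 0.26. After 8 h of T3 it was 0.25, 0.24 and 0.29, and after 24 h it was 0.07, 0.13 and 0.15. After 48 h it had reached -0.13, -0.05 and 0.04, and after 96 h -0.47, -0.31 and -0.29. The 3 T3 arrays of each time from 24 h on lay below the 3 of the time before. The single lowest array was that of donor 1 at 96 h. From one time to the next, 27 of the 44 group means fell at every step from PDGF through 96 h of T3, and 39 fell at every step after 8 h.

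**Figure D2:**
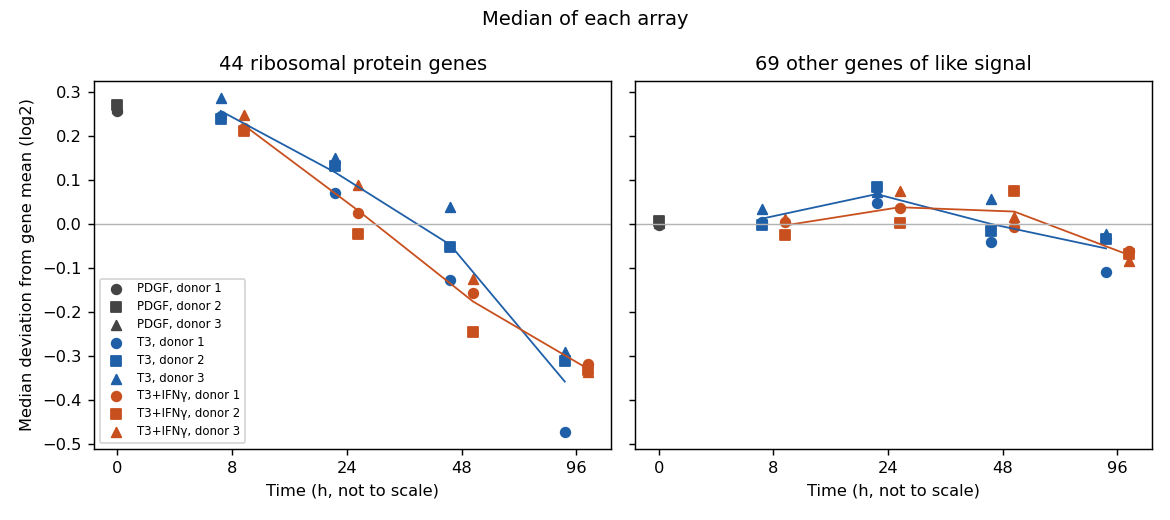
Median deviation from each gene's mean over 27 arrays (log2), by array, for the 44 ribosomal protein genes (left) and for 69 other genes of like signal (right), against time in hours on an axis not to scale; symbols mark donors and lines join group means. The left panel falls from between 0.26 and 0.27 on the PDGF arrays to between -0.47 and -0.29 with T3 at 96 h, and the right panel stays between -0.11 and 0.08.

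Other genes of like brightness moved in both directions. The 69 other genes with a mean signal of at least 12.43, the lower quartile of the members, changed by a median of -0.03 at 96 h, with 27 lower and 20 higher. These were 39.1% and 29.0%, against 29.5% and 23.4% of all genes. The 33 family probe sets with several symbols, tested as an addition made after seeing the data, followed the members. Of these probe sets, 0, 9, 28 and 33 were lower at 8, 24, 48 and 96 h and none was higher, with a median of -0.66 at 96 h.

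Genes of both subunits fell. At 96 h the median change was -0.64 over the 30 genes of the large subunit, 29 of them called, and -0.55 over the 14 of the small subunit, 13 of them called. The subunits were not tested against each other. The 2 members not called at 96 h were Rpl3l, at -0.02 (SE 0.11), and Rps13, at -0.38 (SE 0.18, limma adjusted p = 0.0761). With donor as a block in the fit, Rps13 was called too (adjusted p = 0.0186), which left Rpl3l alone, where 31.7% of all genes were lower in that fit. The parent gene Rpl3, whose protein lies near the peptidyl transferase centre, fell by 0.61 at 96 h (SE 0.07).

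**Figure D3:**
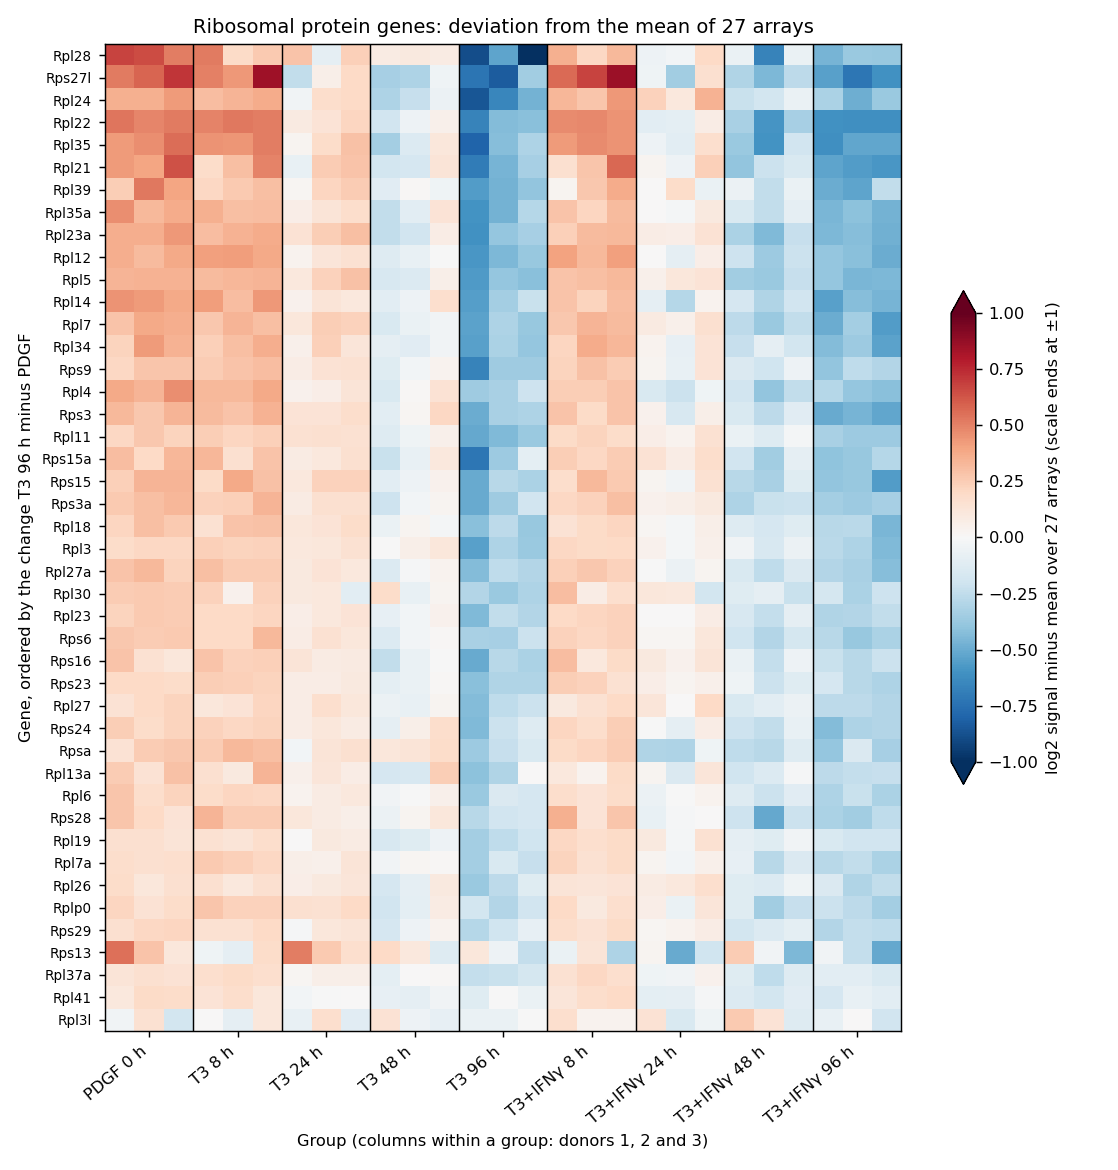
Deviation of each ribosomal protein gene (rows, ordered by the change from PDGF to 96 h of T3) from its mean over 27 arrays, in log2 units, with the 3 donors of each of 9 groups as columns. Red turns to blue from PDGF to 96 h in both courses, most strongly for Rpl28, Rps27l, Rpl24 and Rpl22 at the top, while Rpl41 and Rpl3l at the bottom stay pale.

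Rps27l stood first at 24 and 48 h. It is a paralog of Rps27 that p53 induces in human cells. Its signal on the PDGF arrays of donors 1 to 3 was 10.86, 10.92 and 11.06. After 24 h of T3 it was 10.09, 10.40 and 10.54, after 48 h 10.01, 10.03 and 10.29, and after 96 h 9.60, 9.51 and 9.99. All 9 of these arrays were below all PDGF arrays, and the change was -0.61 at 24 h (SE 0.15, limma adjusted p = 0.00219), then -0.84 at 48 h, and finally -1.25 at 96 h (SE 0.15, adjusted p = 1.56e-07).

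Rpl22, an RNA-binding protein that αβ T cell development needs in the mouse, had 12.72, 12.68 and 12.71 on the PDGF arrays and 11.52, 11.75 and 11.77 with T3 at 96 h. The groups were far apart against a spread of 0.02 (SD, n = 3) in PDGF and 0.14 with T3. Rpl22 changed by -1.02 (SE 0.08, limma adjusted p = 5.55e-10), so that its signal fell by 50.7%. Rpl24, whose mutation causes the Belly spot and tail phenotype in mice, went from 12.72, 12.72 and 12.79 to 11.51, 11.71 and 11.89, a change of -1.04 (SE 0.10, limma adjusted p = 3.60e-09). Rpl35, which sits at the exit of the peptide tunnel, had 12.97, 13.01 and 13.10 in PDGF and 11.74, 12.11 and 12.23 with T3 at 96 h. Its change was -0.995 (SE 0.12), and that of Rpl21 was -0.99 (SE 0.13).

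The single largest value at 96 h belonged to a dim probe set. Rpl28, a large subunit protein that budding yeast lacks, read 6.38, 6.36 and 6.21 in PDGF and 4.82, 5.18 and 4.603 with T3 at 96 h. Its groups did not overlap, with a change of -1.45 (SE 0.15, limma adjusted p = 1.74e-08), but it was read far below the 39 members with means over 10. A brighter probe set that lists Rpl28 among other symbols is among the 33 kept apart. The lowest change among those 33 at 96 h was -1.28.

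At the other end, Rpl41, which encodes a very short basic peptide, had 13.27, 13.35 and 13.35 in PDGF and 13.04, 13.15 and 13.10 with T3 at 96 h. Its change of -0.22 (SE 0.06, limma adjusted p = 0.00297) was already reached at 48 h, at -0.23. The size of the fall went with signal level. Over the 39 members with means over 10, mean signal and the change at 96 h had a Pearson correlation of 0.70. By the same mean, the 10 brightest of these had a median change of -0.48 and the 10 dimmest -0.89. Both measures are thus in part tied to the fall by how the mean was taken. The part of signal level in the order of the members was not tested.

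**Figure D4:**
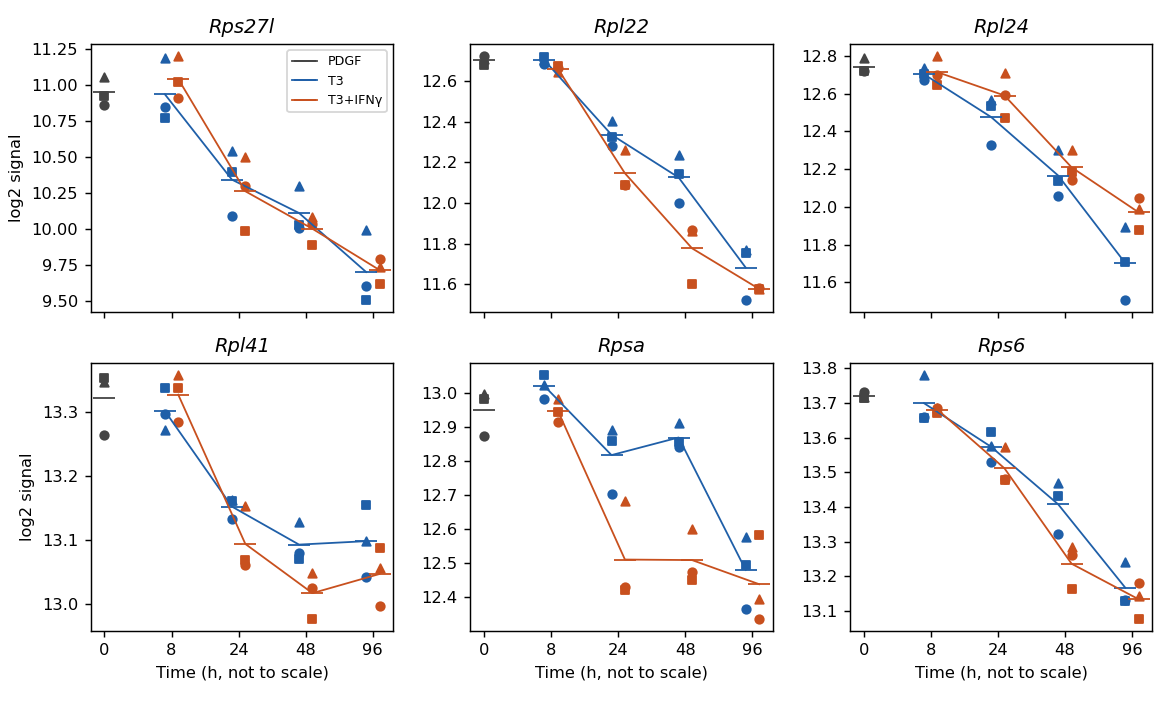
Log2 signal of Rps27l, Rpl22, Rpl24, Rpl41, Rpsa and Rps6 on each array (circles, squares and triangles are donors 1, 2 and 3; short bars are group means) against time in hours on an axis not to scale, with PDGF in grey, T3 in blue and T3+IFNγ in orange. Rps27l and Rpl22 fall from 24 h on, Rpl41 spans only 12.98 to 13.36, and Rpsa shows the T3+IFNγ arrays below the T3 arrays at 24 and 48 h.

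Some members are known for other roles as well. Rpl5 and Rpl11, which both bind the ubiquitin ligase Mdm2 when ribosome assembly is disturbed, fell by 0.80 (SE 0.07) and 0.68 (SE 0.06) at 96 h. Rpl13a, which leaves the ribosome in IFNγ-treated human monocytic cells to silence messages, fell by 0.46 (SE 0.11), and Rps3, at the entry site of the message, by 0.69 (SE 0.08). Rps6 fell by 0.55, from 13.73, 13.71 and 13.72 in PDGF to 13.13, 13.13 and 13.24 with T3 at 96 h. Rplp0, a stalk protein widely used as a reference gene, had changes of 0.07 at 8 h and -0.01 at 24 h, not called, then fell by 0.25 at 48 h, and by 96 h had fallen by 0.40 (SE 0.08, limma adjusted p = 0.000109). Its arrays read 13.09, 13.02 and 13.06 in PDGF and 12.70, 12.59 and 12.68 with T3 at 96 h, with no overlap. Rpsa, known also as the laminin receptor, had -0.13 at 24 h and -0.08 at 48 h, not called, and fell by 0.47 at 96 h. Its other 2 probe sets were called lower at both earlier times, with -0.32 and -0.24 at 24 h and -0.30 and -0.24 at 48 h (limma adjusted p = 0.0104, 0.0462, 0.0124 and 0.0425).

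For 5 members there was more than 1 probe set of their own. All probe sets of Rpsa, Rps24, Rpl3, Rpl14 and Rpl7 were called lower at 96 h of T3, in a fit over all single-symbol probe sets. The 3 of Rpsa had changes of -0.47, -0.66 and -0.74. The dimmer probe set of Rps24, with a mean signal of 6.54, fell by 1.53, and the brighter one, at 13.25, fell by 0.48. That dimmer probe set of Rps24 was already lower at 8 h, by -0.96 (SE 0.18, limma adjusted p = 0.00184), where the brighter one had 0.004.

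Promoter sequences from RefSeq (assembly GRCr8) were found for 39 of the 44 members, 2 of these by symbol and the rest by gene identifier. The start sites are shown because the members fell together and because their messages are known for the TOP motif. Each line gives 30 bases of the gene's strand, with the annotated start at base 16, and capitals mark a C followed by at least 4 pyrimidines (C or T), read on the gene's strand only, that begins at that start. Rpl22 lies at chr5:168117946-168117975 (+ strand), Rpl35 at chr3:43165907-43165936 (- strand), Rpl28 at chr1:78083518-78083547 (- strand), Rpl19 at chr10:83519049-83519078 (+ strand) and Rplp0 at chr12:46718376-46718405 (- strand). Rpl24 at chr11:58128391-58128420 (- strand) and Rps27l at chr8:76443643-76443672 (+ strand) are added as strong fallers with no such run at the annotated start.
Rpl22: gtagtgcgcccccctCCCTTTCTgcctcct
Rpl35: cgccccttcctctttCTCTCgaaccgggcg
Rpl28: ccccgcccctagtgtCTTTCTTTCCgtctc
Rpl19: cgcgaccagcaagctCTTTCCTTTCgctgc
Rplp0: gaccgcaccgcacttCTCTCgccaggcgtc
Rpl24: gaatttagggaggagattctctaccctata
Rps27l: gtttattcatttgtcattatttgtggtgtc

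The run began exactly at the annotated start in 12 of the 39 members (30.8%), against 881 of 33469 promoters in the table (2.63%). Within 3 bases of the start it was found in 19 members (48.7%), against 11.2% of all promoters. At 96 h of T3 the 19 members with the run within 3 bases had changed by a median of -0.67 and the 20 without it by -0.58. This is a description of annotated starts, and a gene whose letters do not match may start elsewhere.

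Genes that build the ribosome were called earlier in the course than those of its proteins. Of 67 ribosome biogenesis genes measured, 46 were already lower at 8 h of T3, with a median change of -0.54, when no ribosomal protein gene was called. They then numbered 31, 45 and 59 lower at 24, 48 and 96 h, with medians of -0.34, -0.47 and -0.89. Against a background of 5.37% lower at 8 h, this was 68.7% of the biogenesis genes. The largest falls at 8 h were those of Utp18 (-1.17), Tsr1 (-0.99), Ddx21 (-0.96) and Bop1 (-0.92), which act in processing of the ribosomal RNA and in assembly of the subunits. At 96 h they were those of Nhp2 (-1.91), Fbl (-1.77) and Nop58 (-1.70), proteins of the small nucleolar particles that modify ribosomal RNA, and Rrs1 (-1.58). Expressed as a share of the change at 96 h, the median of the ribosomal protein genes had reached 2.82%, 24.0% and 46.9% at 8, 24 and 48 h, and that of the biogenesis genes 60.8%, 38.2% and 52.8%. The lists were not tested against each other.

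**Figure D5:**
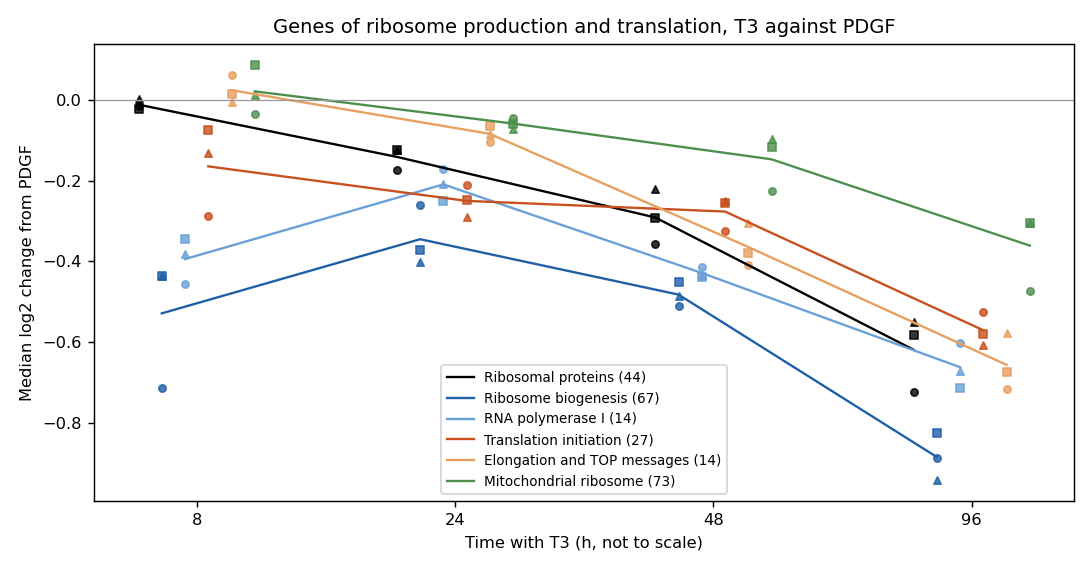
Median log2 change from PDGF with T3 for 6 gene lists (number of genes in brackets) against time in hours on an axis not to scale, with donors 1, 2 and 3 as circles, squares and triangles and lines through the mean of the donors. Ribosome biogenesis and RNA polymerase I lie below 0 at 8 h, where the ribosomal proteins and the elongation factors lie near 0, and all 6 lie below 0 at 96 h.

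RNA polymerase I genes, 14 measured, had 4, 3, 8 and 10 lower and 1, 1, 2 and 0 higher at the 4 times, where 5.37%, 17.8%, 25.7% and 29.5% of all genes were lower. The 21.4% lower at 24 h was near that background, and Polr1d, a subunit shared with RNA polymerase III, rose by 0.64 at that time. The list held Taf1d, a subunit of its selectivity factor, at -0.79 at 8 h and -1.72 at 96 h. Of 14 genes of elongation factors and further TOP messages, 0, 5, 11 and 13 were lower (92.9% at 96 h) and 0, 1, 0 and 0 higher, among those lower Eef1b2 (-0.96 at 96 h), a part of the elongation factor that reloads eEF1A, and Hnrnpa1 (-1.23). Of 27 initiation factors 5, 14, 13 and 20 were lower (18.5%, 51.9%, 48.1% and 74.1%) and 1, 1, 1 and 0 higher. The proteins of the mitochondrial ribosome, 73 measured, had 3, 18, 27 and 40 lower and 6, 7, 6 and 7 higher, with a median of -0.36 at 96 h. The shares lower were 4.11%, 24.7%, 37.0% and 54.8%, the first of them under the background. Those higher were 8.22%, 9.59%, 8.22% and 9.59%, against 7.31%, 17.1%, 17.5% and 23.4% of all genes. Rack1, a scaffold protein bound to the small subunit and no member by symbol, fell by 0.32, 0.51 and 1.01 at 24, 48 and 96 h. The list of growth control went both ways, with 14 of 26 genes lower and 7 higher at 96 h. These were 53.85% and 26.9%, against 29.5% and 23.4% of all genes. The largest changes of that list at 96 h were those of Mxd3 (-3.002), a Myc antagonist, Rps6ka2 (2.91), a kinase of the RSK family, and Myc (-2.54) and Mycn (-2.33), transcription factors that drive ribosome production.

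Few ribosomal protein genes were called between T3+IFNγ and T3 in the fit without donor as a block. Those called were lower and lay in the middle of the course. The median change of T3+IFNγ against T3 was -0.03, -0.09, -0.15 and -0.01 at 8, 24, 48 and 96 h, beside -0.04, -0.04, -0.05 and -0.02 over all genes. The median at 24 h was -0.051 without donor 2 and -0.044 when arrays were centred on bright genes. The numbers called lower in limma were 0, 2, 5 and 0 of 44, and none was called higher. Over all genes 1.58%, 6.35%, 8.53% and 5.63% were lower and 3.69%, 5.96%, 7.58% and 7.91% higher. The members' shares called lower, 4.55% at 24 h and 11.4% at 48 h, were near the background in this fit, which has no donor term. The counts at an unadjusted p under 0.05 were 0, 6, 22 and 2 at these times (0%, 13.6%, 50% and 4.55%), against 14.8%, 23.8%, 28.04% and 24.97% of all genes. With donor as a block 12 members were lower at 48 h (12% of all genes), and at 96 h Rpl24 (0.27) and Rpl28 (0.43) were higher, with adjusted p of 0.0166 and 0.0434 in place of 0.0678 and 0.0579, where 11.0% of all genes were higher. Leaving out donor 2 took the count at 48 h to 0, and leaving out donor 3 took it to 1. These fits have fewer arrays per group, and the share of all genes called in them is not given here. The median change of the members at 48 h was -0.12 without donor 2 and -0.13 without donor 3. The actin 3' to 5' difference on the T3+IFNγ arrays of donor 2 was 1.34, 1.47 and 1.16 at 8, 24 and 48 h, against 0.83, 1.04 and 0.82 on its T3 arrays. At 48 h the mean signal of the microglia markers was 5.21 to 6.12 with T3 and 6.54 to 8.21 with T3+IFNγ, and that of the oligodendrocyte markers was 8.93 to 9.35 and 7.88 to 8.29. The part of these in the differences was not tested.

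The donors differed in size and, at 96 h, in direction. The median member change with IFNγ was -0.06, -0.15 and -0.06 in donors 1, 2 and 3 at 24 h. It was -0.05, -0.22 and -0.18 at 48 h. At 96 h it was 0.14, -0.03 and -0.14. Donor 1, whose T3 array at 96 h was the lowest of all, was thus the one with higher values under IFNγ, and donor 3 the one with lower values. By array, the median deviation of the members after 8 h of T3+IFNγ was 0.22, 0.21 and 0.25, and after 24 h it was 0.03, -0.02 and 0.09. After 48 h the donors had -0.16, -0.24 and -0.13, and after 96 h, close to each other, -0.32, -0.33 and -0.34. The T3+IFNγ arrays lay wholly below the T3 arrays for 7, 14 and 22 members at 8, 24 and 48 h, against 9.5%, 17.5% and 19.3% of all genes. At 96 h they lay wholly below for none and wholly above for 5 members, against 17.4% and 17.6% of all genes. Across the course with T3+IFNγ, 31 of the 44 group means fell at every step from PDGF to 96 h.

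Rpsa was called at both middle times. At 24 h its T3 arrays read 12.70, 12.86 and 12.89 and its T3+IFNγ arrays 12.43, 12.42 and 12.68. At 48 h the T3 arrays read 12.84, 12.85 and 12.91 and the T3+IFNγ arrays 12.47, 12.45 and 12.60. At both times the 3 arrays with IFNγ lay below the 3 without. The change was -0.31 at 24 h (SE 0.08, limma adjusted p = 0.0182). It was -0.36 at 48 h (SE 0.08, limma adjusted p = 0.00431, over all alternatives 0.000779 to 0.126) and -0.04 at 96 h. Without the T3+IFNγ arrays of donor 2 at 8 and 24 h, those with the high Gapdh difference, the change at 24 h was -0.26 and was not called (adjusted p = 0.0965, over all alternatives 0.00409 to 0.34). Nor was it called at 24 h when any 1 donor was left out. The other 2 probe sets of Rpsa had -0.19 and -0.29 at 24 h, then -0.27 and -0.35, with 1 of them called at each time.

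The other 4 calls at 48 h were Rpl22, Rps28, Rpl4 and Rpl5. Rpl22 read 11.997, 12.14 and 12.24 with T3 and 11.87, 11.60 and 11.86 with T3+IFNγ, a change of -0.35 (SE 0.08, limma adjusted p = 0.00505). Rps28, a small subunit protein near the exit of the message, read 12.14, 12.22 and 12.31 against 11.99, 11.69 and 11.99, a change of -0.34 (SE 0.08, adjusted p = 0.00521). In both genes the array of donor 2 with IFNγ was the lowest. Rpl4, which lines the peptide tunnel, changed by -0.28 (SE 0.08), with donors at -0.04, -0.41 and -0.39, and Rpl5 by -0.24 (SE 0.07), with donors at -0.19, -0.23 and -0.29. None of the 5 calls at 48 h held without donor 2, in a fit with fewer arrays per group.

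At 24 h the second call was Rps13, a dim probe set with 5.87, 5.62 and 5.53 with T3 and 5.38, 4.85 and 5.16 with T3+IFNγ. Its change of -0.54 (SE 0.18, limma adjusted p = 0.0462) was not called without the 2 arrays of donor 2 (-0.40), nor when any 1 donor was left out. The highest member value with IFNγ at 24 h was that of Rpl24, at 0.11, not called. Rpl13a had -0.09, -0.08, -0.09 and -0.01 with IFNγ at the 4 times, none called.

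Averaged over the 4 times, 9 members were lower with IFNγ and none was higher (20.5% lower, against 18.5% of all genes lower and 12.7% higher), among them Rpsa at -0.20 (SE 0.04), Rpl22 at -0.17 (SE 0.04), Rpl4 at -0.16 (SE 0.04) and Rps3 at -0.14 (SE 0.04). With donor as a block 15 of 44 were lower, a share above the 22.8% of all genes. In that fit 1 was higher, a share below the 15.3% of all genes. Without donor 2, or without donor 3, 1 member was called, in fits with fewer arrays per group. An interaction term set the IFNγ effect of 96 h against that of 8 h, and no member was called (limma, 1 at an unadjusted p under 0.05), where 2.08% of all genes were lower and 2.24% higher. The 33 family probe sets with several symbols had 0, 3, 6 and 0 lower and, at 96 h, 1 higher.

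Some genes of ribosome biogenesis were also lower with IFNγ in the middle of the course. Of the 67 biogenesis genes 3, 17, 11 and 1 were lower at 8, 24, 48 and 96 h, with Gar1 (-0.80) and Nhp2 (-0.75), partners in small nucleolar particles, leading at 24 h. Of the 73 mitochondrial ribosome genes 0, 19, 20 and 0 were lower, led by Mrps15 (-0.85 at 48 h). In these lists 25.4% and 26.0% were lower at 24 h, against 6.35% of all genes. At 48 h 16.4% and 27.4% were lower, against 8.53%. At 8 h the shares were 4.48% and 0%, against 1.58%, and at 96 h 1.49% and 0%, against 5.63%. For biogenesis the median change at 48 h was -0.05, -0.32 and -0.22 in donors 1, 2 and 3. For the mitochondrial ribosome it was -0.08, -0.39 and -0.24. At 24 h the donors had -0.34, -0.24 and -0.36 for biogenesis and -0.19, -0.26 and -0.14 for the mitochondrial ribosome. Of the 27 initiation factors 5 were lower and 1 was higher at 24 h, with the same counts at 48 h. These were 18.5% lower and 3.70% higher. Over all genes 6.35% and 8.53% were lower and 5.96% and 7.58% higher at these 2 times. Those at 24 h included Eif2b1 (-0.66) and Eif2b3 (-0.53), subunits of the exchange factor eIF2B, and Eif3j (-0.39). Eif4e3, an atypical cap-binding protein, was the one that rose, by 1.80 and then 1.22. In the list of growth control 3 and 6 of 26 were higher and 1 and 2 lower at these times. The shares higher were 11.5% and 23.1%, against 5.96% and 7.58% of all genes. Those lower were 3.85% and 7.69%, against 6.35% and 8.53%, and so not above the background. Eif2ak2, the interferon-induced kinase PKR that stops initiation when it senses double-stranded RNA, rose by 2.26 at 24 h and 2.45 at 48 h (SE 0.15). Eif2ak4, a kinase that senses amino acid shortage, was lower at 24 h (-0.47), and Myc was higher with IFNγ at 48 h (0.75, limma adjusted p = 0.0338) and at 96 h (0.94, adjusted p = 0.00847). In the same list Mxd1 (0.54) and Max (0.32) were higher at 24 h. At 48 h Rps6ka2 (-1.58) was lower and Mxi1 (1.105) higher, both with larger changes than Myc. Rack1 was lower by -0.22 at 48 h (SE 0.07, limma adjusted p = 0.027).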

How the data were processed

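Total RNA of 27 OPC cultures was hybridised to Affymetrix rat arrays, and each array was assigned to its group, time and donor from its label. The deposited values are log2 signals that the authors made with RMA, a method of background correction, quantile normalization and probe set summary. Their notes name RMA and limma without versions, and the genome build is not given in the sources used here. Quantile normalization gives all arrays the same distribution, and the members lie near its top, where real differences can be compressed. The values run from 2.28 to 14.5, with array medians of 5.95 to 6.03. Array data give no count depth, so 3 arrays per group limit the precision.

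Of 31099 probe sets, 57 controls were left out, 20832 carry 1 symbol in the annotation of 2016, 436 several and 9831 none. The brightest probe set stood for each of 14217 genes, with no filter on low values. Of the members, 42 were found in GRCr8 by Entrez identifier. A linear model with a mean for each of 9 groups was fitted to the 27 arrays in limma 3.58.1 (R 4.3.3), with eBayes moderation and Benjamini-Hochberg adjustment within each comparison. The same fit was also run on simulated data. Tables and plots were made in Python 3.11.15 (NumPy 2.4.6, pandas 2.3.3; plots in matplotlib 3.10.9). Donors pair the arrays by their labels: residuals of arrays from the same donor correlated with a median of 0.31, against -0.17 for other donors, and the fit with donor as a block is an alternative. Members were named by rule: the 5 largest called rises and falls per comparison with the same direction in all 3 donors, the 5 brightest and 5 dimmest, paralogs ending in l with their parent gene, Rplp0, Rpsa, Rps6, Rpl5, Rpl11, Rpl13a and Rps3 for known roles, and probe sets or interactions that stood apart. Of each other list, up to 4 called genes were named. Rpl41, the members with several probe sets, Rpl24 and Rpl28 under IFNγ, and the members of the average over times were named after their values were seen. The members, lists and rules were chosen with earlier results of these data known. Names left out of the family were 4 with other suffixes, 2 pseudogenes and 7 kinases. Alternatives were the donor block, other centring, the mean of probe sets, a filter on low genes, an intensity trend, fits of the compared groups only, and leaving out donors or doubted arrays.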

Additional observations from a re-analysis of the deposited data

Results flagged for a closer look

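The dim single-symbol probe set of Rpl28 went opposite ways under IFNγ at different times. At 48 h it was lower with IFNγ in all 3 donors, with a mean change of -0.36, and at 96 h it was higher in all 3 donors, with a mean of 0.43, so that the changes lay 0.79 apart. The difference between these times was not tested. Neither value was called in limma without the donor block (adjusted p = 0.109 at 48 h and 0.0579 at 96 h), and this probe set had a mean signal of 5.70. A brighter probe set, with a mean of 12.57, lists Rpl28 among other symbols and is among the 33 kept apart. The highest change among those 33 with IFNγ at 96 h was 0.26.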

How the results depend on the processing

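The fall of the members with T3 at 96 h was called for 40 to 43 genes and that at 48 h for 22 to 39 under the alternatives run. The count of 40 came from the fit without low genes, which did not test Rpl3l, Rpl30, Rps13 and Rpl28. With the replicate block (donor as a term), 12 members were called with IFNγ at 48 h, 2 at 96 h and 16 on average over the times, and it moved no other count of members by over 1.5 times. Leaving out 1 donor gave 3 to 4 calls with T3 at 24 h, 22 to 31 at 48 h and 41 to 42 at 96 h, and with IFNγ 0 at 24 h, 0 to 4 at 48 h, 0 to 1 at 96 h and 1 to 12 on average. The mean of probe sets gave 1 call with T3 at 8 h. Centring on bright genes gave 18 with T3 at 24 h, medians of -0.051 and -0.18 at 8 and 24 h, and with IFNγ a median of -0.0011 at 8 h, 1 call at 24 h and 1 at 96 h. An intensity trend gave 17 with T3 at 24 h and, with IFNγ, 15 at 48 h, 1 at 96 h and 18 on average. Centring on the array median gave a median of -0.042 with T3 at 8 h and 11 calls with IFNγ at 48 h and 18 on average. Without low genes, IFNγ had 1, 11, 1 and 14 calls at 24, 48 and 96 h and on average, among the members left in that fit. A fit of only the groups compared gave 0 at 24 h and 1 at 48 h. Without the 2 doubted T3+IFNγ arrays of donor 2 there was 0 at 24 h, and without the PDGF array of donor 2, an alternative chosen after seeing the data, 1. The terminal pyrimidine run counted 12 at the start and 19 within 3 bases. Of single named genes, none reversed. The causes were not tested. Each group held 3 arrays, and fewer where arrays were left out. Beyond the shares given above for the donor block, the share of all genes called is not given for these alternatives. Their counts therefore cannot be set against a background.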
